A study of Homo sapiens with 4 samples.

Results

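The keratin gene clusters are the stretches of human chromosomes 12 and 17 in which most keratin genes stand side by side, and the FOXA2 peaks called in them are described here. Peaks were taken when their summit lay in chr12:52500000-53400000, the type II window with KRT7, KRT5, KRT8 and KRT18, or in chr17:38750000-39850000, the type I window with KRT19, KRT14 and KRT17 (hg19). This gave 18 of 14846 peaks in cells given GSK2879552 and 22 of 21308 peaks in cells given vehicle. Each list was called from 2 sequencing lanes of FOXA2 chromatin immunoprecipitation (ChIP-seq) in PC3, an androgen-independent human prostate cancer cell line. The treated cells received 50 µM GSK2879552, an inhibitor of the histone demethylase LSD1, for 4 hours, and both groups were in medium with 5% charcoal-stripped serum. The time of the vehicle treatment is not given separately. ATAC-seq is named in the descriptions of the samples, against FOXA2 ChIP-seq in their titles and in the series, and the titles were followed. With 1 peak list per group, and lanes described as technical replicates, spread between cultures was not measured, so no test was made and every difference is between these 2 libraries.

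Keratins are the intermediate filament proteins of epithelial cells, and a filament is built from pairs of a type I and a type II keratin. KRT8 and KRT18 form the pair of simple epithelia and of luminal prostate cells, and KRT7 and KRT19 are further simple epithelial keratins. KRT5 and KRT14 form the pair of basal cells, and KRT17 is a basal keratin that is also made in stressed epithelium. FOXA2 is a forkhead factor that can bind compact chromatin, and LSD1 removes methyl groups from histones.

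In RefSeq (GRCh38.p14), KRT7 stands near one end of the type II run, KRT5 beside KRT6A, and KRT8 and KRT18 at the other end with the microRNA gene MIR9898 between them. KRT18 is a type I keratin gene that stands in the type II cluster. KRT19, KRT14 and KRT17 stand in this order at one end of the type I run, where KRT9 precedes KRT14 and KRT16 precedes KRT17. No annotation of the build of the peak lists was used, so gene order is given here without placing any peak on a gene.

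Promoter sequences of 2 of the 7 named genes, KRT8 and KRT5, were matched by symbol in the RefSeq promoter table (GRCh38.p14, 250 bases before to 50 after the start). They are shown because they let a listed promoter of a luminal and of a basal keratin be read for the letters of the forkhead motif. Only the first listed entry of each gene was used here and in the counts below. Whether that entry holds the main start of the gene was not checked. The letters searched on both strands were TGTTTAC, its variant TGTTTGC, and as a further form TATTTAC. The words are of equal length, so none contains another, and capitals mark a match. Both genes lie on the minus strand and are printed 5′ to 3′ from 250 bases before the start to 30 after it.
KRT8, chr12:52926440-52926719: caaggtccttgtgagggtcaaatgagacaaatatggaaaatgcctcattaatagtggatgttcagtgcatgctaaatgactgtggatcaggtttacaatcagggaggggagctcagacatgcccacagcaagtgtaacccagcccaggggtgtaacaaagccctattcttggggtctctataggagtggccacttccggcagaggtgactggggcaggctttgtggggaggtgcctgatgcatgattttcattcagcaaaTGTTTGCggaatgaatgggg
KRT5, chr12:52520365-52520644: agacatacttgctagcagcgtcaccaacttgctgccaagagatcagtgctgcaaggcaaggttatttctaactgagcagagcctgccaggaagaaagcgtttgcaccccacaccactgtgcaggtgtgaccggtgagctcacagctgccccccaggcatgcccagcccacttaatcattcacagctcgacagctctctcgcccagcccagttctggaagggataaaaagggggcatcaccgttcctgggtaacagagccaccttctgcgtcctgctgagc
The KRT8 entry held TGTTTGC from base 11 after its listed start, and none of the 3 words stood in the KRT5 entry. Any of the words stood in 9.57% of all 35116 promoters of the table, and TGTTTGC in 3.89%.

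Of the protein-coding keratin genes in these runs, 1 of 14 type II promoters with a sequence (KRT8) and 2 of 20 type I promoters (KRT24 and KRT27) held a match. The keratin-associated protein genes (KRTAP), which encode matrix proteins of the hair shaft and stand within the type I run, held one in 15 of 33 promoters. Over all 35116 promoters of the table, not reduced to 1 per gene, the share was 9.57%. The keratin gene counts lie near that share. The KRTAP count lies above it and was not tested against it. Over all keratin and KRTAP promoters in the runs there were 19 matches in 18 stretches that were not identical, and KRTAP4-7 and KRTAP4-9 shared one. The matches cannot be counted as independent, because some further KRTAP matches had similar but not identical neighbouring bases. The following 5 stretches, with 10 bases on either side of the match, were chosen for that likeness after they were seen, and other KRTAP matches, such as those of KRTAP1-1 and KRTAP29-1, had unlike neighbouring bases. All are on chromosome 17 of GRCh38.p14, and each is given on the strand of its gene.
KRTAP9-2: ggaaaacagtGTAAACAacaacaagga
KRTAP9-3: ggaaaacaatGTAAACAgcaacaagga
KRTAP9-9: ggaaaacagtGTAAACAgaaacaagga
KRTAP4-8: ttttcagtagGTAAATAataacaagga
KRTAP4-11: tttccagtagGTAAATAataacaagga
The KRTAP9 stretches carry the reverse complement of TGTTTAC, and the KRTAP4 stretches that of TATTTAC. A match is a run of letters and was not tested as a bound site.

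FOXA2 was called at several places in both clusters. The type II window held 8 GSK2879552 and 11 vehicle peaks, and the type I window 10 GSK2879552 and 11 vehicle peaks. In the type II window this was 8.89 GSK2879552 peaks per Mb (95% Poisson interval 3.84 to 17.5), against 5.79 on the rest of chromosome 12 between its first and last peak. The vehicle list had 12.2 per Mb (6.10 to 21.9) in that window, against 8.05 on the rest of chromosome 12. In the type I window there were 9.09 GSK2879552 peaks per Mb (4.36 to 16.7), against 5.06 on the rest of chromosome 17, and 10.0 vehicle peaks per Mb (4.99 to 17.9), against 7.10. The densities lay above those of the remaining chromosome in all 4 comparisons, and each interval covered the value of the remaining chromosome. The lists share most of these peaks, so the 4 comparisons are not independent. All intervals cover counting error only.

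**Figure D1:**
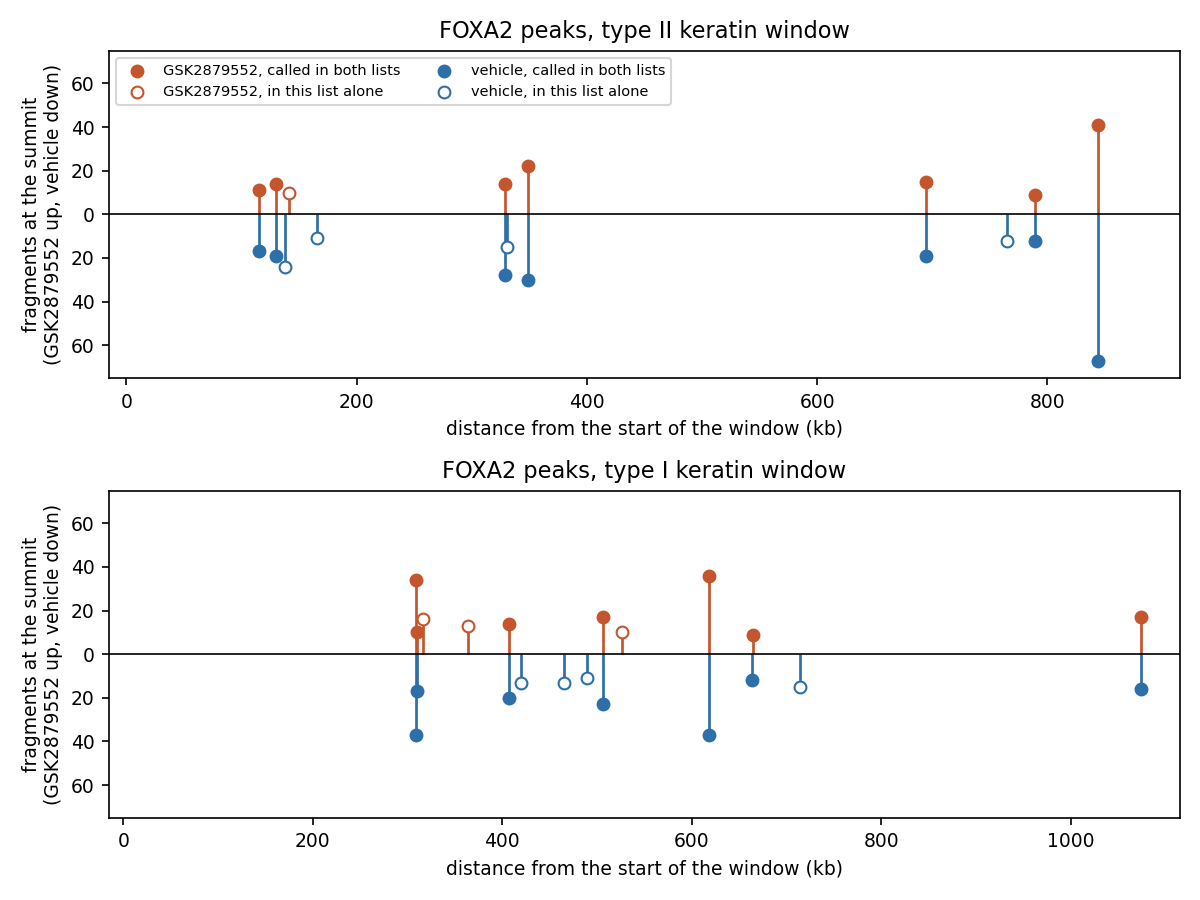
FOXA2 peaks of the type II (top) and type I (bottom) keratin windows by distance of the summit from the window start (kb); line height is the number of fragments at the summit, GSK2879552 upwards and vehicle downwards, and open circles mark peaks in 1 list alone. The tallest lines, 41 fragments in GSK2879552 and 67 in vehicle, stand near the far end of the type II window, and long stretches of both windows hold no peak.

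Long stretches of both windows held no summit, and how often such stretches occur over all peaks was not measured. In the type II window no summit of either list lay in the 346 kb from 52848673 to 53194727 on chromosome 12. In the type I window no summit of either list lay in the first 308 kb, nor in the 360 kb from 39464105 to 39824261 on chromosome 17. In the GSK2879552 list the last of these stretches was 410 kb long, because a vehicle peak at its edge was not called. Of the member peaks, 3 of 18 in GSK2879552 (16.7%) and 6 of 22 in vehicle (27.3%) had another summit of their own list within 10 kb. Over all peaks the shares were 24.4% in GSK2879552 and 30.5% in vehicle.

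The typical member had fewer fragments at its summit than the typical peak of its list, by little in vehicle and by more in GSK2879552. The number of sequenced fragments over each summit was recovered from the deposited fold enrichment and p-value. Its median was 14 over the 18 GSK2879552 peaks (range 9 to 41) and 17 over the 22 vehicle peaks (11 to 67). Over all peaks the median was 18 in both lists. Local background at the member summits was at most 2.18 fragments in GSK2879552 and 2.49 in vehicle. Its median was 1.36 in GSK2879552, against 1.71 over all GSK2879552 peaks. In vehicle it was 1.33, against 1.68 over all vehicle peaks. Widths ran from 168 to 553 bp in GSK2879552 and from 175 to 548 bp in vehicle. All 22 vehicle members had a −log10 q of at least 5, which 89.2% of all vehicle peaks reached. Of the GSK2879552 members 13 of 18 (72.2%) reached it, against 86.0% of all GSK2879552 peaks.

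**Figure D2:**
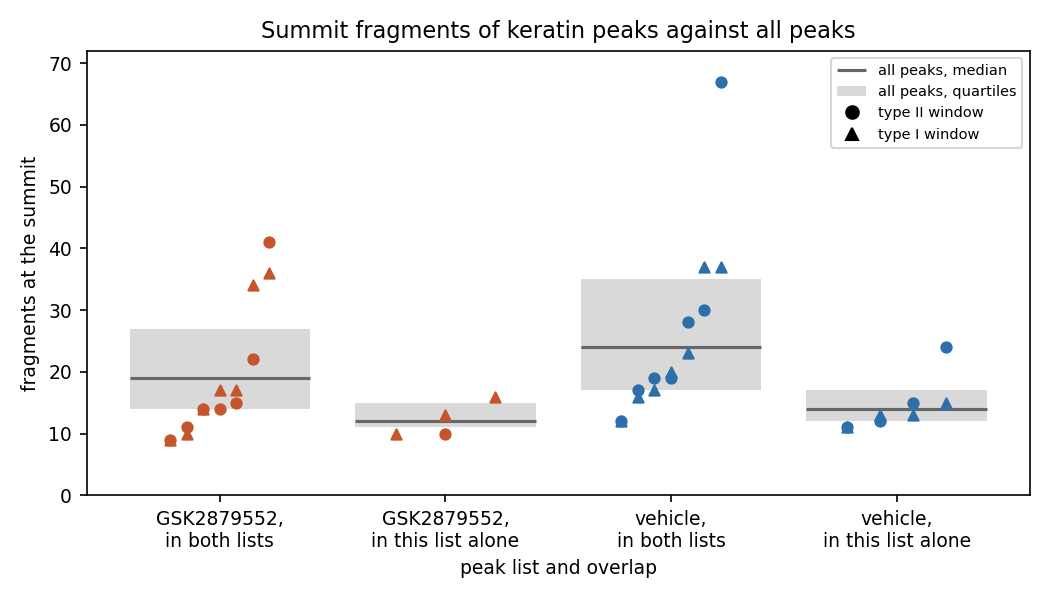
Fragments at the summit of each keratin peak (circles, type II window; triangles, type I window) by list and by whether the peak overlaps one of the other list; grey bars and lines are the quartiles and median of all peaks of that kind. Peaks in 1 list alone run from 10 to 16 fragments in GSK2879552 and from 11 to 24 in vehicle.

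Most member peaks of either list had a counterpart in the other. Overlap by at least 1 bp was found for 14 of 22 vehicle members (63.6%, exact 95% interval 40.7 to 82.8), 7 of 11 in each window, against 62.0% of all vehicle peaks, a share close to that of the members. Of the GSK2879552 members 14 of 18 overlapped a vehicle peak (77.8%, 52.4 to 93.6), against 89.2% of all GSK2879552 peaks, which the interval covers. By window these were 7 of 8 (type II) and 7 of 10 (type I). The number of peaks, GSK2879552 over vehicle, had a ratio of 0.818 (0.414 to 1.60), against 0.697 over all peaks. It was 0.727 (0.254 to 1.99) in the type II and 0.909 (0.346 to 2.36) in the type I window, intervals too wide to tell the windows apart.

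**Figure D3:**
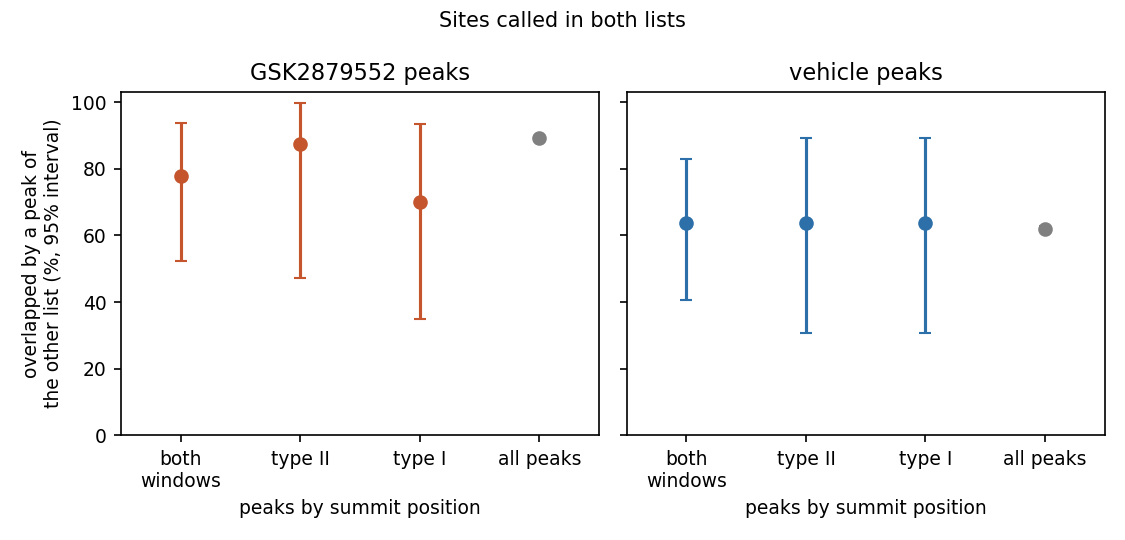
Percent of GSK2879552 peaks (left) and vehicle peaks (right) overlapped by a peak of the other list, for both keratin windows, each window and all peaks (grey); bars are exact 95% binomial intervals. Each keratin interval covers the share over all peaks, 89.2% in GSK2879552 and 62.0% in vehicle.

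At the 14 sites called in both lists, fewer fragments lay over the summit after GSK2879552 at 13 and more at 1. Over all 13200 pairs of shared peaks, 78.0% had fewer and 16.3% more. Summed over the 14 sites there were 263 fragments in GSK2879552 and 354 in vehicle. Their ratio, scaled by the lowest background of each list, was 0.741 (0.630 to 0.872), against 0.798 over all pairs, which the interval covers. The median log2 ratio was -0.44, against -0.32 over all pairs. The type II sites summed to 126 fragments in GSK2879552 and 192 in vehicle, a ratio of 0.655 (0.519 to 0.824). The type I sites summed to 137 fragments in GSK2879552 and 162 in vehicle, a ratio of 0.844 (0.667 to 1.07). Both intervals cover the 0.798 found over all pairs, so neither window is set apart from the difference between the libraries as a whole. The interval of the type II window lay below 1 and that of the type I window did not, but they overlap. No test of the difference between the windows was made.

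The strongest site of both windows stood in the type II window. At chr12:53343580-53343891 there were 41 fragments in GSK2879552 and 67 in vehicle, a ratio of 0.611 (0.404 to 0.914). It ranked 746 of 14846 by −log10 p in the GSK2879552 list and 278 of 21308 in the vehicle list, and its fold, the authors' value, was 13.3 in GSK2879552 and 19.5 in vehicle. Its summits were 15 bp apart. The other type II site whose interval lay below 1 was chr12:52828328-52828570, with 14 fragments in GSK2879552 and 28 in vehicle, a ratio of 0.499 (0.243 to 0.980). These were 2 of 14 sites, and over all pairs 8.24% had an interval below 1. The intervals of both sites cover 0.798, the ratio over all pairs.

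A second vehicle peak, with its summit 1767 bp from that of chr12:52828328-52828570, stood at chr12:52830071-52830307 with 15 fragments, and had no overlapping GSK2879552 peak. The neighbouring site at chr12:52848261-52848808, the widest of the members, had 22 fragments in GSK2879552 and 30 in vehicle, with an interval that covered 1. So did the site at chr12:53194622-53194873, with 15 in GSK2879552 and 19 in vehicle. The remaining type II pairs had a lower −log10 p in vehicle than the 4 pairs already given, with 11 fragments in GSK2879552 and 17 in vehicle at chr12:52614889-52615124, 14 in GSK2879552 and 19 in vehicle at chr12:52629848-52630101, and 9 in GSK2879552 and 12 in vehicle at chr12:53289077-53289274. All 7 type II pairs had fewer fragments in GSK2879552, with ratios from 0.499 to 0.788.

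The strongest type I sites differed little between the libraries. At chr17:39368314-39368744 there were 36 fragments in GSK2879552 and 37 in vehicle, a ratio of 0.971 (0.596 to 1.58). At chr17:39058290-39058626 there were 34 in GSK2879552 and 37 in vehicle, a ratio of 0.917 (0.558 to 1.50). These intervals reach well below and above 1, so they do not show that the sites were unaffected. The next by fragments was chr17:39255992-39256242, with 17 in GSK2879552 and 23 in vehicle.

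Beside the site at chr17:39058290-39058626, a second one 1633 bp away in vehicle, at chr17:39059940-39060189, had 10 fragments in GSK2879552 and 17 in vehicle. In GSK2879552 it was the weakest member, with a −log10 q of 1.86. The site at chr17:39156482-39156700 had 14 in GSK2879552 and 20 in vehicle, and chr17:39413924-39414139 had 9 in GSK2879552 and 12 in vehicle. The site with more fragments after GSK2879552 was chr17:39824151-39824365, with 17 in GSK2879552 and 16 in vehicle (ratio 1.06, 0.504 to 2.24). It stood alone at the end of the type I window, beyond the 360 kb without a summit. Summits of the 14 pairs lay a median of 29 bp apart, against 23 bp over all pairs.

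**Figure D4:**
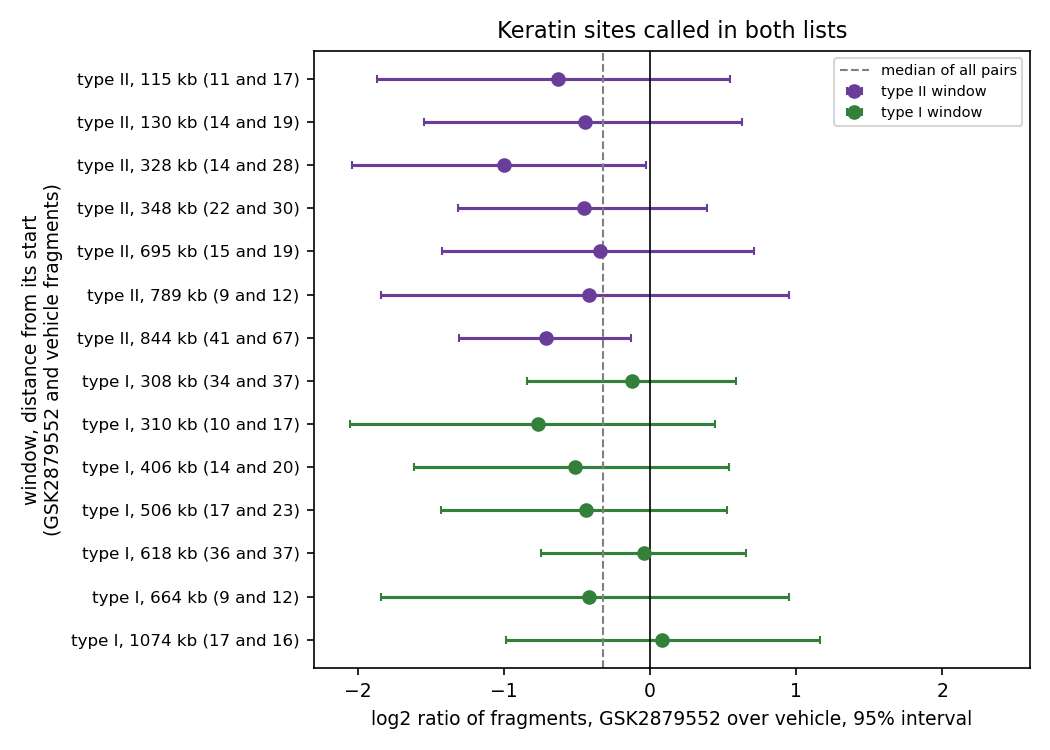
Log2 ratio of fragments at the summit, GSK2879552 over vehicle, for the 14 keratin sites called in both lists, with 95% intervals for counting error; the dashed line is the median of all pairs, -0.32. In the type II window all 7 sites lie left of 0, and in the type I window 6 of 7 do.

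In the vehicle list alone were 8 of the 22 members, against 38.0% of all vehicle peaks. The strongest of them was chr12:52637864-52638141 in the type II window. It had 24 fragments (95% Poisson interval 15.4 to 35.7) and a fold of 9.71. Among all 5684 vehicle peaks with a −log10 p at or above its value, 114 (2.01%) had no overlapping GSK2879552 peak. It was singled out after its value was seen, as the strongest of the 8, and the small share follows in part from that choice. The nearest GSK2879552 summit was 3285 bp away, in the peak chr12:52641155-52641358 with 10 fragments, which in turn overlapped no vehicle peak. On one side of this place stood the peak at chr12:52629848-52630101, called in both lists. On the other side stood chr12:52665105-52665368, called in vehicle alone with 11 fragments.

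The other vehicle-only peaks had 11 to 15 fragments. In the type II window the remaining one was chr12:53265037-53265211 with 12. In the type I window, chr17:39169774-39169974 and chr17:39215138-39215348 had 13 each, chr17:39238894-39239068 had 11 and chr17:39463957-39464179 had 15. The last was the strongest of these 4 by −log10 p, at 13.2, and its nearest GSK2879552 summit was 50057 bp away.

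In the GSK2879552 list alone were 4 of the 18 members, against 10.8% of all GSK2879552 peaks, and 3 of the 4 stood in the type I window. The strongest was chr17:39066201-39066425 with 16 fragments (9.15 to 26.0), whose nearest vehicle summit was 6253 bp away. Among all 7575 GSK2879552 peaks with a −log10 p at or above its value, 127 (1.68%) had no overlapping vehicle peak. It too was singled out after its value was seen, as the strongest of the 4, and the small share follows in part from that choice. The next were chr17:39113208-39113455 with 13 fragments and chr17:39276098-39276389 with 10, whose nearest vehicle summits were 43249 and 20197 bp away. At sites found in a single list the fragments of the other library are not known, so these sites are not shown to lack FOXA2 there.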

How the data were processed

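FOXA2 ChIP-seq of PC3 cells was compared between GSK2879552 and vehicle. The submitters' processing notes name MACS2 2.1.2, BWA 0.7.2 and SAMtools 0.1.18, and hg19 (GRCh37). Not given in the sources used here are the options, duplicate handling, any control library, and where reads that match several near-identical keratin genes were placed. As deposited, the fold is the ratio of fragments plus 1 to local background plus 1. The authors' peak caller also gave the deposited −log10 p and −log10 q, and a deposited score of 10 times that −log10 q. Positions and summit offsets are as deposited.

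Fragments were recovered as the whole number, under 1500, whose Poisson tail gave the deposited −log10 p. It matched within 0.001 for 100% of peaks in both lists, and no member had a second match. The lowest background was 1.0816 fragments in GSK2879552 and 1.07938 in vehicle, and ratios were scaled by it (0.998). This assumes a background made from the ChIP libraries themselves. Depth further took the shortest interval, 168 bp in GSK2879552 and 175 bp in vehicle, as the fragment length. On these assumptions, it was 6.44 reads per kb in GSK2879552 and 6.17 in vehicle. These depths were not used to scale the ratios, here or in any alternative setting. Overlap needed 1 bp (checked with bedtools 2.31.1), and pairs are mutual best partners. Ratios carry exact binomial intervals. Scripts used Python 3.11.15 with scipy 1.17.1 and were tested on simulated data. PCR duplicates are not independent molecules.

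Members and lists were chosen with earlier results of these data known. Every member is given: pairs at or above the median vehicle −log10 p and peaks in 1 list alone by rule, the remaining pairs beside them. The distance from named genes to summits was planned and not made, since no hg19 annotation was used.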

Additional observations from a re-analysis of the deposited data

How the results depend on the processing

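Of 74 recomputed values, 72 stayed within the interval of the value reported. The exceptions were the share of type II GSK2879552 peaks overlapped, 100% (6 of 6) when both lists were held to a minimum −log10 q of 5 and likewise 100% at a minimum fold of 5, against 87.5% as deposited. The intervals are wide at such counts, so few changes could fall outside them. Taking members by interval, or pairing summits within 100 bp, returned the deposited values unchanged. Leaving out the scaling factor of 0.998 could hardly move a ratio. These alternatives are counted among the 72 and add little to it. The overlapped share of type I vehicle peaks, 63.6% as deposited (30.8 to 89.1), was 45.5% at the minimum −log10 q of 5 and counted as within. Shares over all peaks at these minimums are not given here. The filtered shares therefore cannot be set against the shares over all peaks as deposited, or read as a trait of the windows. Over both windows the ratio of peak numbers ran from 0.591 to 0.846, the overlapped share of GSK2879552 peaks from 72.2% to 84.6% and that of vehicle peaks from 50.0% to 69.2%. The ratio of fragments ran from 0.727 to 0.772. It ran from 0.640 to 0.679 in the type II and from 0.830 to 0.909 in the type I window. Leaving out the strongest pair, an alternative chosen after seeing the data, is among these. With the windows widened by 100 kb, 15 of 18 pairs had fewer fragments in GSK2879552. No paired analysis was possible because the lanes of a group share 1 list. For the same reason no lane could be left out. With few fragments at most summits, depth limits single sites to the wide intervals given.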
